A study of Mus musculus with 8 samples.

Results

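Guanylate-binding proteins and 6 other products of interferon-inducible genes were followed across 8 mouse embryonic stem cell lines. The set holds 9 genes, Gbp2, Gbp2b, Gbp3, Igtp, Irf1, Isg15, Ifit1, Bst2 and Tap1, of the 16593 named genes on the array, and takes every probe that the platform annotation gives to these symbols. Gbp2 and Gbp2b were selected on these arrays, chosen by their high values in tNT line 2, so their height in that line is a description and not a finding. The 9 genes have 16 probes, of which 12 were above background on at least 1 array and 8 on all 8 arrays, where above background means a detection p under 0.01. In total, 7 of the 9 genes entered the tests among 8816 genes or unnamed probes above background on at least 2 arrays, and Ifit1 and Tap1 were above background on no array.

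RNA was measured once per line on Illumina bead arrays. The first group is 6 lines made by tetraploid nuclear transfer (called tNT lines here), which are labelled tetraploid, with numbers read here as passages 17, 19, 25, 29, 18 and 25 for lines 1 to 6. The second group is 2 lines made by nuclear transfer (called NT lines), which are labelled not tetraploid, with no passage given. Every line is of mixed strain, and the design text describes double sedimentation for all 8 lines. In nuclear transfer the nucleus of a body cell is put into an egg that has lost its own, and the series title speaks of a pair of somatic nuclei in a shared egg cytoplasm. The donor cells are not given in the sources used here, and each line is 1 culture with 1 array, so a single line's value has no error of its own. Between 10449 and 10969 of 25697 probes were above background on an array. The embryonic stem cell markers Pou5f1, Sox2, Nanog, Zfp42, Esrrb, Sall4, Dppa5a and Tdgf1 were all measured, 8 of 8, and none passed an adjusted p of 0.05 between the groups. Nanog was lowest in the lines where most genes of the set are highest, at 11.97 in tNT line 2 and 12.06 in both NT lines, against 12.42 to 12.64 in the other tNT lines. Esrrb was so too, at 12.85 in tNT line 2 and 13.10 and 12.96 in the NT lines, against 13.40 to 13.69 in the other tNT lines. Pou5f1 was highest in these 3 lines, at 12.66 in tNT line 2 and 12.59 and 12.52 in the NT lines. These lines were the 3 highest in 7.07% of all genes, and the share in which they were the lowest was not counted. The other markers, Sox2, Zfp42, Sall4, Dppa5a and Tdgf1, did not set these 3 lines apart. The part of these marker levels in the results was not tested.

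Interferons are secreted signals of infection that act through receptors on the cell surface, Janus kinases and STAT factors to switch on a large set of defence genes. The interferon-stimulated response element (ISRE) and the gamma-activated site (GAS) are the best known DNA elements through which this happens, and IRF factors such as IRF1 bind the ISRE. Pluripotent stem cells are known to respond weakly to interferon and to express some of these defence genes without it.

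The promoters are shown because they are where these factors are known to act on such genes. RefSeq windows of assembly GRCm38.p6, running from 250 bases before the annotated transcript start to 50 after it, were found for all 9 genes. The sequences are written in the direction of transcription, with capitals marking matches on either strand to an ISRE-type core, a pair of GAAA half-sites in the same direction with 2 bases of any kind between them, or a GAS-type core, TTCNNNGAA. Gbp2 lies at chr3:142620413-142620712 and Gbp2b at chr3:142594597-142594896, both on the plus strand. Gbp3 has 2 annotated starts on the plus strand, and the window of the first, chr3:142559794-142560093, is given. Isg15 lies at chr4:156200769-156201068 on the minus strand. Igtp and Irf1 lie on the plus strand at chr11:58199306-58199605 and, for the first of 2 starts, chr11:53769764-53770063.
Gbp2: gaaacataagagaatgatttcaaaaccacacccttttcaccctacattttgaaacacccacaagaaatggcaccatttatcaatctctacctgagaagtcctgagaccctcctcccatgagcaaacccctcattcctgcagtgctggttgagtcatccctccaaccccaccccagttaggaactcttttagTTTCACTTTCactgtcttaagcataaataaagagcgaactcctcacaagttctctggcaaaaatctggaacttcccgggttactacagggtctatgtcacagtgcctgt
Gbp2b: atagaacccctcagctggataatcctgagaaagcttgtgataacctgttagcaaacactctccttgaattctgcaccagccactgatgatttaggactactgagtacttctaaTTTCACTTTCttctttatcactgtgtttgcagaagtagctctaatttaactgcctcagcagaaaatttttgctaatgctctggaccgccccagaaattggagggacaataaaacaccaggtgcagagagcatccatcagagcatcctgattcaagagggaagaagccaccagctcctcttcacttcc
Gbp3: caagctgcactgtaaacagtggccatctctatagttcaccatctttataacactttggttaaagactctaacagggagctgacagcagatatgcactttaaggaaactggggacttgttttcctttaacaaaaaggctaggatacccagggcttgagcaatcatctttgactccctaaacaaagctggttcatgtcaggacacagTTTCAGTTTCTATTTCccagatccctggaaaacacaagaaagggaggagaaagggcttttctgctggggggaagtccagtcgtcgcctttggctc
Isg15: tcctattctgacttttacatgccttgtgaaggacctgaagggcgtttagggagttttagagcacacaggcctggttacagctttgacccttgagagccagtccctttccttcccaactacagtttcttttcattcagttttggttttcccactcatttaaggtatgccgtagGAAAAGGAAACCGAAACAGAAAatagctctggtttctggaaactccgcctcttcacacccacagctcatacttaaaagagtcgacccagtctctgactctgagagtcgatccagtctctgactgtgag
Igtp: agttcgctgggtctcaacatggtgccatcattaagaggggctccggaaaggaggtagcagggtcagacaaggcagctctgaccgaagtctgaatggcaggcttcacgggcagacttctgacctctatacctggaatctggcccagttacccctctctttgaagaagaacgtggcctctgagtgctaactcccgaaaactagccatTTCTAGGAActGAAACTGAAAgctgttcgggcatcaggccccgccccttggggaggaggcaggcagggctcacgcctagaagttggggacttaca
Irf1: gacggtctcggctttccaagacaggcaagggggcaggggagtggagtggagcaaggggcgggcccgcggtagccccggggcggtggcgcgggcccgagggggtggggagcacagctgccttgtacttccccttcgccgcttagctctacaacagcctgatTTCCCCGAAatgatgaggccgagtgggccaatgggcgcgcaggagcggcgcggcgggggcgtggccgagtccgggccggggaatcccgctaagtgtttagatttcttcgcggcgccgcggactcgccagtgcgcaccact

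The ISRE-type core was found in 7 of the 9 genes, Gbp2, Gbp2b, Gbp3, Igtp, Isg15, Ifit1 and Bst2, and in 3.99% of the 27025 genes with a window, or 3.44% of all 32851 windows of this length. The matched letters were the same, TTTCACTTTC, in Gbp2 with its first base 59 bases before the start, in Gbp2b 137 bases before it and in Ifit1 104 bases before it. Gbp3 has 2 matches that overlap, Isg15 has 3 that overlap in a row, and Bst2 has 2 that overlap. The GAS-type core was found in 3 of the 9, Igtp, Irf1 and Bst2, and in 9.55% of genes with a window. In Irf1 it reads TTCCCCGAA, 90 bases before the start, and in Bst2 it overlaps an ISRE-type match. The Tap1 window and the second windows of Gbp3 and Irf1 hold neither set of letters. A match is a description of the sequence and not a binding site shown here.

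**Figure D1:**
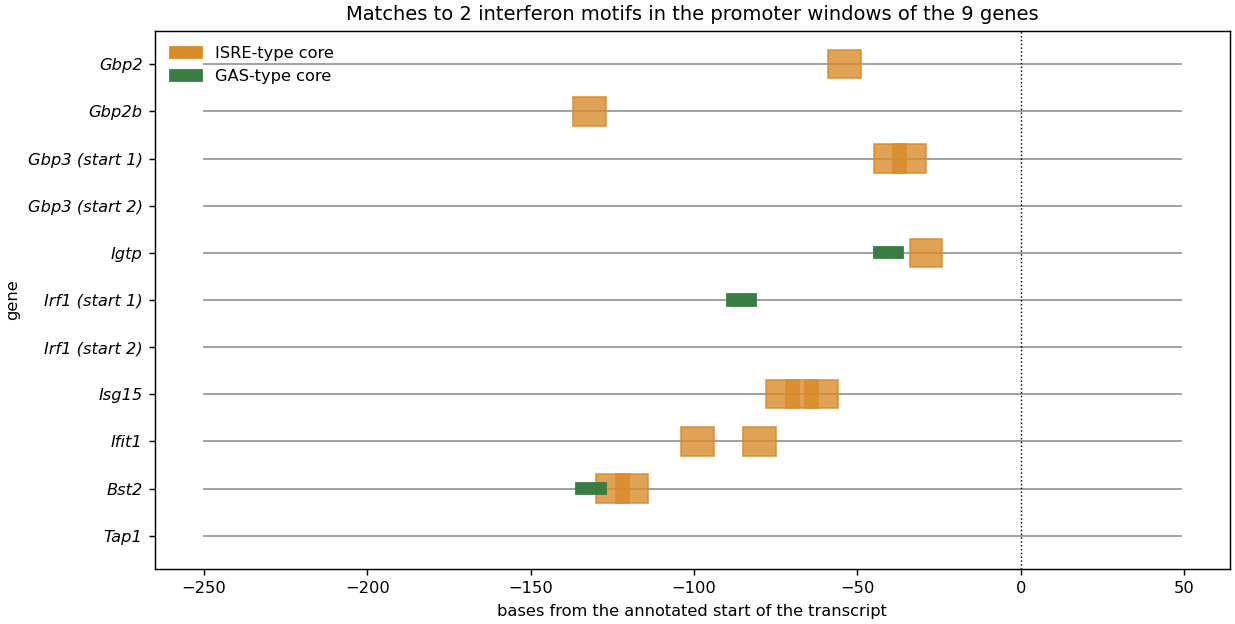
Positions of ISRE-type (orange) and GAS-type (green) matches in the promoter windows of the 9 genes. The horizontal axis is the distance in bases from the annotated transcript start, each row is a window, and darker orange marks overlapping matches. All matches lie before the start, and 7 genes have an orange match.

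The guanylate-binding proteins are GTPases that gather on vacuoles of intracellular pathogens and on their membranes. Values here are normalized log2 intensities, in which a difference of 1 is 2-fold, and levels of different genes are not comparable. Gbp2 was at 7.04, 8.95, 5.01, 5.16, 6.03 and 5.58 in tNT lines 1 to 6, and at 8.84 and 8.92 in NT lines 1 and 2. Line 2 thus reached the level of the NT lines and the other 5 tNT lines lay below both NT lines, with lines 3 and 4 not above background. Before normalization the intensities were 226, 646, 106, 128, 136 and 136 in tNT lines 1 to 6, against 557 and 553 in the NT lines. The other 2 Gbp2 probes were above background on 1 array (NT line 2) and on none, so Gbp2 rests on 1 probe.

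Gbp2b, called Gbp1 in some annotations, was at 6.18, 7.71, 5.02, 4.88, 5.16 and 5.54 in tNT lines 1 to 6, and at 7.28 and 7.33 in NT lines 1 and 2. Its order is like that of Gbp2, with line 2 and the NT lines at the top and line 1 next, and tNT lines 3, 4 and 5 were not above background. Gbp3 was measured on all arrays, at 6.24, 7.40, 5.51, 5.70, 6.30 and 5.98 in tNT lines and at 7.15 and 6.87 in NT lines. A second Gbp3 probe read 6.06, 7.57, 5.18, 5.18, 6.12 and 6.42 in tNT lines and 6.76 and 6.71 in NT lines. Both Gbp3 probes have line 2 highest and the NT lines next. The 3 guanylate-binding genes are paralogs, and whether a probe also binds the RNA of another of them was not tested.

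Igtp, an immunity-related GTPase that acts at pathogen vacuoles, was at 6.39, 7.11, 6.24, 6.78, 6.87 and 6.64 in tNT lines 1 to 6, and at 7.44 and 7.39 in NT lines. Isg15, a ubiquitin-like protein that is attached to other proteins, was at 6.32, 7.42, 5.56, 5.63, 5.65 and 6.37 in tNT lines, and at 8.09 and 7.67 in NT lines. In these 2 genes the groups did not overlap: line 2 was the highest tNT line and still lay below both NT lines. All 6 tNT values lay below both NT values in 2 of the 7 measured genes, and in 918 of 8816 genes overall (10.4%).

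Irf1, the transcription factor that induces many of the others, varied least, at 9.77, 9.86, 9.69, 9.67, 9.48 and 9.59 in tNT lines and 9.82 and 9.87 in NT lines. Its whole tNT range was 0.38, and line 2 lay between the NT lines. It has 5 probes, 4 of them measured on all arrays, and the other 3 of those gave differences of -0.29, -0.46 and -0.23 between the group means, all lower in tNT lines. On the probe with -0.46, tNT line 4 (6.58) lay above line 2 (6.36). On those with -0.29 and -0.23, line 2 and the NT lines were highest. Bst2, tetherin, which holds budding viruses at the cell surface, was at 8.94, 9.51, 9.40, 8.86, 8.34 and 9.01 in tNT lines and at 9.16 and 9.61 in NT lines. Here the groups overlapped, and line 5 was lowest.

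Ifit1, which binds foreign RNA caps, ranged from 4.33 to 4.62 over the 8 lines, and Tap1, a subunit of the transporter that loads peptides for antigen presentation, from 4.67 to 5.15. Neither was above background on any array, where the lowest detected probes were at 5.34 to 5.50, so their levels are bounds and no fold is given.

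**Figure D2:**
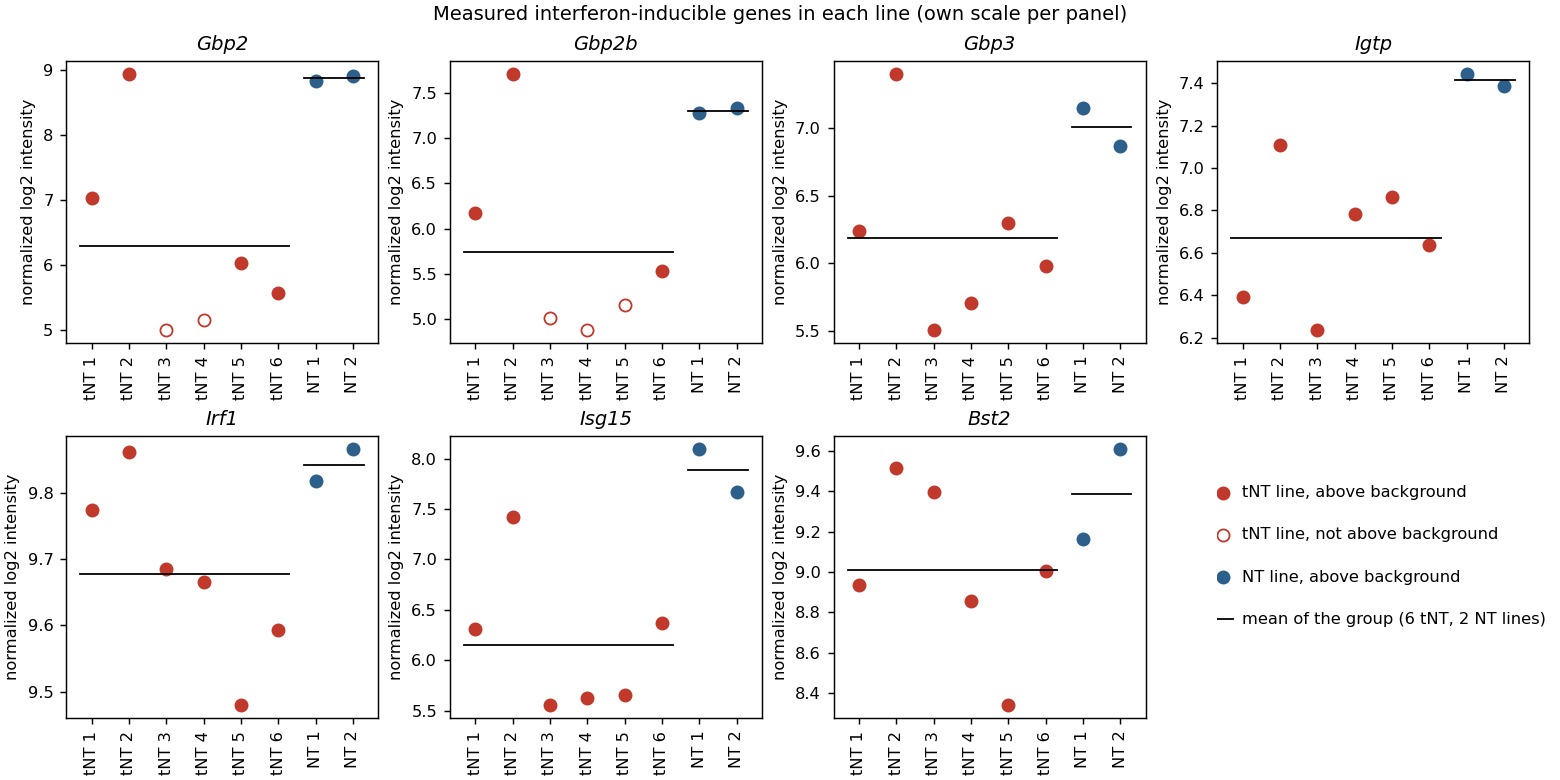
Normalized log2 intensity (vertical axis, own scale per panel) of the 7 measured genes in tNT lines 1 to 6 (red) and NT lines 1 and 2 (blue). Each point is 1 array, open points are not above background, and black lines are group means. In every panel except that of Bst2 the 3 highest points are tNT line 2 and the NT lines.

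By the brightest probe of each gene, tNT line 2, NT line 1 and NT line 2 were the 3 highest of the 8 lines in 6 of the 7 measured genes. Bst2 was the exception, and for Irf1 the order did not hold on another of its probes. This order held for 623 of 8816 genes (7.07%). For Gbp2 and Gbp2b the choice of genes helped to set it, so they add nothing as support, and the rest of the set was chosen with results of these arrays known. The lowest line was tNT line 3 in 4 genes (Gbp2, Gbp3, Igtp and Isg15), where it was lowest in 13.5% of all genes. It was tNT line 5 in 2 genes (Irf1 and Bst2, 10.2% of all genes) and tNT line 4 in 1 (Gbp2b, 12.1% of all genes). For Gbp2 and Gbp2b the lowest lines were not above background, so the order among them is not measured.

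Set against the median of the other 7 lines, tNT line 2 was 7.54-fold higher for Gbp2, 4.50-fold for Gbp2b, 2.24-fold for Gbp3 and 2.15-fold for Isg15. These 4 of 7 genes passed 2-fold, as did 110 of 8816 genes (1.25%). Gbp2 and Gbp2b were picked for this measure, and nothing is read from the count. Of all genes, 0 deviated upward more than Gbp2 in line 2, and 4 more than Gbp2b. The choice of these genes helped to set both ranks, so nothing is read from them. The deviation of line 2 was 0.51 for Bst2, 0.33 for Igtp and 0.18 for Irf1. The median over the 7 genes was 1.11, against 0.00 for all genes. It includes the picked Gbp2 and Gbp2b, so nothing is read from this median either. Without background correction, or with the added offset raised from 16 to 50, 2 of the 7 genes passed 2-fold, Gbp2 and Gbp2b.

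The NT lines and the other tNT lines were described by the same measure. NT line 1 was at least 2-fold above the median of the other lines in 3 of the 7 genes, where 0.953% of all genes were, and NT line 2 in 3, also where 0.953% were. In both lines the 3 genes were Gbp2, Gbp2b and Isg15. Gbp2 and Gbp2b were picked on these arrays and the set was chosen with results of them known. Nothing is therefore read from these counts or from those that follow. Of the remaining tNT lines, line 1 was at least 2-fold above for Gbp2 alone (0.181% of all genes). Lines 3 and 4 were at least 2-fold below for Gbp2 and Gbp2b (0.749% and 0.681% of all genes), as was line 5 (0.306%), and line 6 was so for Gbp2 (0.363%). Lines 3 and 4 for Gbp2, and lines 3, 4 and 5 for Gbp2b, were not above background, so their distances are not exact. Among the tNT lines other than line 2 in which Gbp2 was above background, it was at 7.04, 6.03 and 5.58.

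The design asks how tNT lines differ from NT lines, and each of the 7 measured genes had a lower mean in tNT lines, but none passed an adjusted p of 0.05 in limma, with Benjamini-Hochberg adjustment over the 8816. Over all genes 1.86% passed, 0.964% lower and 0.896% higher in tNT lines, and at these shares a set of 7 genes would seldom hold a call. The difference was negative in 7 of 7 genes, against 49.1% of all genes, and its median was -0.82 over the 7 genes, against 0.01 over all. The set was chosen with results of these arrays known, so these values are a description and not support. In bulk RNA, fewer cells that express a gene and less RNA per cell cannot be told apart.

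Isg15 came closest. It averaged 6.16 ± 0.72 over the tNT lines (SD, n = 6, as for the tNT means that follow) and 7.88 ± 0.30 over the NT lines (SD, n = 2, likewise), a difference of -1.73 ± 0.44 (SE) or 3.31-fold (limma, adjusted p = 0.0851). Igtp was at 6.67 ± 0.32 in tNT lines and 7.42 ± 0.04 in NT lines, 1.68-fold lower (adjusted p = 0.108). Gbp2 had the largest difference of the set, 6.29 ± 1.49 in tNT lines and 8.88 ± 0.06 in NT lines, 5.99-fold (adjusted p = 0.161), but 2 of its 6 tNT values were not above background. Gbp2b was 2.94-fold lower (5.75 ± 1.07 in tNT lines and 7.30 ± 0.04 in NT lines, adjusted p = 0.234) and Gbp3 1.77-fold lower (6.19 ± 0.67 in tNT lines and 7.01 ± 0.20 in NT lines, adjusted p = 0.337). The differences of Irf1, -0.17 ± 0.13 (SE), and Bst2, -0.38 ± 0.28 (SE), were small against their errors (adjusted p = 0.541 and 0.524). At an unadjusted p under 0.05, 4 of the 7 genes were lower in tNT lines (Gbp2, Gbp2b, Igtp and Isg15), as were 8.60% of all genes. The value of tNT line 2, for which Gbp2 and Gbp2b were picked, enters this fit. Their tests and this count are therefore descriptions, and nothing is read from them.

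The number of calls changed when tNT line 2 was left out. Without that line 5 of the 7 genes passed as lower in tNT lines, where 3.44% of all genes did. These were Gbp2 (-3.11, adjusted p = 0.0114), Gbp2b (-1.95, adjusted p = 0.0134), Gbp3 (-1.06, adjusted p = 0.0300), Igtp (-0.83, adjusted p = 0.0313) and Isg15 (-1.98, adjusted p = 0.00591). Since Gbp2 and Gbp2b were chosen for a high value in the line left out, its removal lowers their tNT mean and their spread by construction. Line 2 was also the highest tNT line for Gbp3, Igtp and Isg15, so their tNT mean and spread fall with its removal too. The set was chosen with results of these arrays known, and nothing is read from the count. With array weights in place of equal weights 5 of the 7 passed as lower, where 7.59% of all genes did. Line 2 had the lowest weight there, 0.284, so this fit is not separate from leaving it out, and nothing is read from its count. Without NT line 1, 0 of the 7 passed, where 0.0681% of all genes did (6 of 8816), and without NT line 2 likewise 0, where 0.0794% did (7 of 8816). Each of these fits has a single NT array, assumed to vary like the tNT lines, so a count of 0 among 7 says little. Without background correction Isg15 passed (adjusted p = 0.0401), while the difference was -1.61 for Gbp2, -0.73 for Gbp2b and -0.40 for Gbp3.

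**Figure D3:**
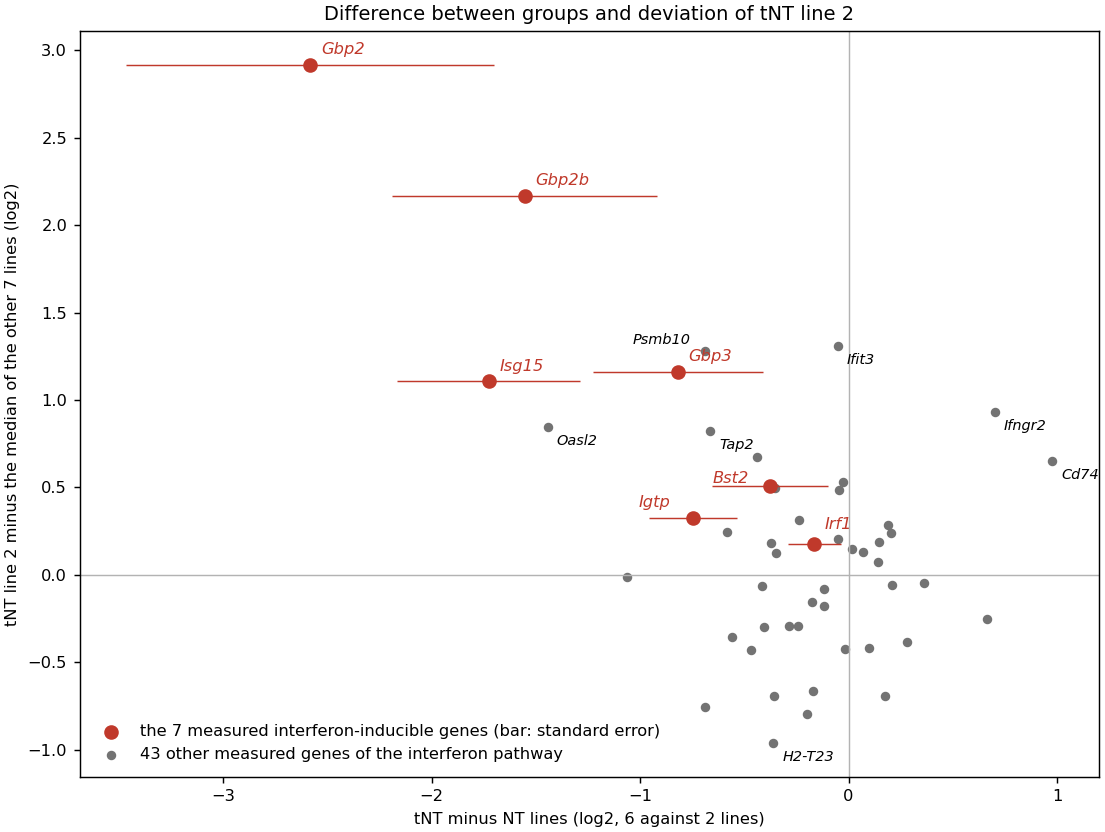
Difference between 6 tNT and 2 NT lines (horizontal axis, log2) against the deviation of tNT line 2 from the median of the other 7 lines (vertical axis, log2), with standard errors of the horizontal value for the 7 measured genes (red) and 43 other measured genes of the interferon pathway (grey). The 7 genes all lie left of and above 0, from Irf1 near the origin to Gbp2 at -2.58 and 2.91, and both axes use the value of line 2.

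Passage was the other numbered variable of the tNT lines. Gbp2 was at 7.04 at passage 17 (line 1), 6.03 at 18 (line 5), 8.95 at 19 (line 2), 5.01 and 5.58 at 25 (lines 3 and 6) and 5.16 at 29 (line 4). The 3 lines at passages 17 to 19 were thus all above the 3 at 25 to 29, with a slope of -0.21 ± 0.08 (SE) per passage, unadjusted p = 0.0335 in limma and adjusted p = 0.994. Gbp2 was picked for its height in line 2, at passage 19, so nothing is read from this order, the slope or its p. Lines 3 and 4 were not above background for Gbp2, so their distances are not exact. No gene of the 8816 passed the adjusted threshold for passage (0%), and 4.44% had an unadjusted p under 0.05, among them 1 of the 7, Gbp2. Slopes were -0.12 for Gbp2b, -0.09 for Gbp3 and -0.06 for Isg15, between -0.01 and 0.01 for the other 3, and negative in 6 of 7 genes, against 50.9% of all genes. Without tNT line 2 the slopes were smaller, -0.14 for Gbp2, -0.07 for Gbp2b, -0.06 for Gbp3 and -0.025 for Isg15. Without tNT line 5 the slope of Isg15 was larger, -0.10.

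The wider interferon pathway was described by 8 lists with 86 genes, of which 79 have a named probe, 43 were measured and 31 were above background on no array. In tNT lines 1 of the 43 was higher at an adjusted p of 0.05 (0.896% of all genes) and 0 were lower (0.964% of all genes). A lower mean in tNT lines was found in 29 of the 43 (49.1% of all genes), with a median difference of -0.17. Line 2 passed 2-fold above the median of the other lines in 2 of the 43 (1.25% of all genes) and had a median deviation of -0.01. The order with tNT line 2 and the NT lines on top was found in 6 of the 43 (7.07% of all genes), Ddx58, Irgm2, Oasl2, Adar, Tap2 and Psmb10. Tap2 entered the tests only because it was above background in those 3 lines, so its order adds nothing to the count.

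Most other GTPases of the response were at background. Gbp4, Gbp5, Gbp7, Gbp8, Gbp9, Iigp1, Tgtp1, Ifi47 and the myxovirus resistance genes Mx1 and Mx2 were above background on no array, 10 of the 12 with a probe, and Gbp6 and Tgtp2 have no named probe. Irgm2, an immunity-related GTPase, was at 6.31, 7.09, 6.66, 6.60, 6.25 and 6.24 in tNT lines and 6.92 and 6.83 in NT lines, again with line 2 highest (adjusted p = 0.438). Irgm1, another of this family, lay between 13.14 and 13.38 in every line by its brightest probe, while a dimmer probe of it, chosen after the values were seen, ranged from 8.33 to 9.63 with line 2 highest.

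Upstream of the response, 3 of 6 receptor genes were measured and none passed. Ifngr2, a chain of the interferon gamma receptor, was at 8.37, 8.29, 7.88, 7.17, 7.77 and 7.35 in tNT lines and 7.18 and 7.03 in NT lines (adjusted p = 0.259), so here line 1 and line 2 were highest and the NT lines were low. Ifnlr1, a chain of the lambda receptor, differed by -0.02, and Ifnar1 and Il10rb were above background on no array. Of the kinases and STAT factors 4 of 6 were measured and none passed. Jak2 differed by -0.41 (adjusted p = 0.233), Stat2 by -0.17 and Irf9 by -0.12, and line 2 deviated by -0.30, -0.66 and -0.18 from the other lines in these 3 genes. Jak1 was above background on no array. Irf3, a factor activated by nucleic acid sensors, differed by -0.24 (adjusted p = 0.483) and Irf2, a relative of Irf1, by -0.05, while Irf7 and Irf8 were above background on no array.

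Of the sensors of foreign nucleic acid, 5 of 11 were measured and none passed. Ddx58, which encodes RIG-I, was at 7.76, 8.18, 7.51, 7.81, 8.04 and 8.00 in tNT lines and 8.43 and 8.09 in NT lines (adjusted p = 0.334). Mavs, the adaptor of RIG-I, was lowest in line 2, which deviated by -0.69, and Zbp1, a sensor of nucleic acids in the Z form, deviated by -0.29 there.

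Among 22 antiviral effectors and chemokines 13 were measured, none passed, and 9 had a lower mean in tNT lines. Oasl2, an oligoadenylate synthetase-like protein, was at 7.69, 8.53, 6.72, 7.24, 7.69 and 7.56 in tNT lines and 9.23 and 8.80 in NT lines, 2.72-fold lower (adjusted p = 0.0886). As in Isg15, line 2 was the highest tNT line and below both NT lines. Ifit3, a relative of Ifit1, was at 5.98, 7.13, 5.86, 5.47, 5.20 and 5.82 in tNT lines and 6.11 and 5.82 in NT lines, so line 2 stood above all others and the NT lines did not (adjusted p = 0.961). Ifitm1 was at 5.91 in line 2, within the 5.78 to 6.94 of the other tNT lines and below both NT lines, the lower of which was at 6.87 (adjusted p = 0.262).

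In antigen presentation 9 of 14 genes were measured and Cd74, the invariant chain of class II molecules, was the single call in the pathway lists. It was higher in tNT lines, at 6.23, 6.89, 6.49, 6.68, 6.24 and 6.39, against 5.67 and 5.34 in NT lines, 1.97-fold (adjusted p = 0.0372), and NT line 2 was not above background. A second Cd74 probe, above background on 7 arrays, differed by 0.67. There the groups overlapped, at 5.95 to 6.74 in tNT lines and 6.08 and 5.24 in NT lines. Psmb10, a subunit of the immunoproteasome, was at 8.66, 10.10, 9.20, 8.82, 8.58 and 8.52 in tNT lines and 9.63 and 9.71 in NT lines (adjusted p = 0.368). Tap2, the partner of Tap1, was above background in line 2 at 5.80 and in the NT lines at 5.67 and 5.74, and in no other line (adjusted p = 0.279). H2-T23, a class I gene, was lowest in line 2, at 7.03, against 8.01 and 8.19 in NT lines and between 7.32 and 8.15 in the other tNT lines.

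Of 7 inhibitors 5 were measured and none passed. Ptpn6, a phosphatase, was 1.58-fold higher in tNT lines (adjusted p = 0.0660), at 8.04 to 8.56 against 7.49 and 7.82 in NT lines. A dimmer Ptpn6 probe, above background on 5 arrays, differed by 0.24. There the groups overlapped, with tNT line 6 at 5.25 and the NT lines at 5.38 and 5.29. Usp18, which removes Isg15 from proteins, differed by -0.35 (adjusted p = 0.315), and Cish, of the SOCS family, by -0.20.

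Markers of other cell types were read beside these values. Of 11 fibroblast markers with a probe 5 were measured, Thy1, Lum, Dcn, Col1a1 and Col6a1, and all 5 were highest in tNT line 2, where 20.9% of all genes were. Their summed normalized intensity was 1925 in line 2, 847 to 1285 in the other tNT lines and 950.3 to 1029 in NT lines. Col1a2, Col3a1, Postn, Pdgfra, Pdgfrb and S100a4 were above background on no array. Of 9 endothelial markers 5 were measured, with a sum of 1388 in line 2, 558 to 827 in the other tNT lines and 812.5 to 826 in NT lines. In line 2 Robo4 deviated by 2.68, Etv2 by 2.00 and Flt1 by 0.41, while Pecam1 deviated by -0.56, its lowest value of the 8 lines, and Tek by -0.20. Flt1 was lower in tNT lines by 2.99-fold (adjusted p = 0.00400). Kdr, Cdh5 and Emcn were above background on no array. Of 10 blood markers with a probe 3 were measured, with a sum of 154.5 in line 2, 82.0 to 123.8 in the other tNT lines and 131.5 to 167.5 in NT lines, and Ptprc, Adgre1, Cd14, Itgam, Spi1, Tal1 and Gata1 were above background on no array. The part of such cells in the values of the interferon genes was not tested.

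Gbp3, Gbp2b and Gbp2 follow each other in that order on chromosome 3 in the RefSeq table, and 4 measured genes on each side, chosen after the data were seen, were set beside them. The 8 neighbours, Metap1, Eif4e, Rap1gds1, Pdlim5, Kyat3, Pkn2, Lmo4 and Hs2st1, differed by -0.61 to -0.01 between tNT and NT lines and none passed. Line 2 deviated by 0.09 to 0.74 in them, never 2-fold, and 2 of the 8 had the order with line 2 and the NT lines on top, as did 7.07% of all genes. Over 386 measured genes of chromosome 3 the median deviation was -0.20 in tNT line 3, against -0.002 to 0.04 in the other lines, and line 3 was the lowest line for Gbp2 and Gbp3. Over 437 measured genes of chromosome 8, which holds Bst2 and Psmb10, the median deviation was 0.13 in tNT line 2, against -0.04 to 0.03 in the other lines. The part of these shifts in the genes' values was not tested.

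**Figure D4:**
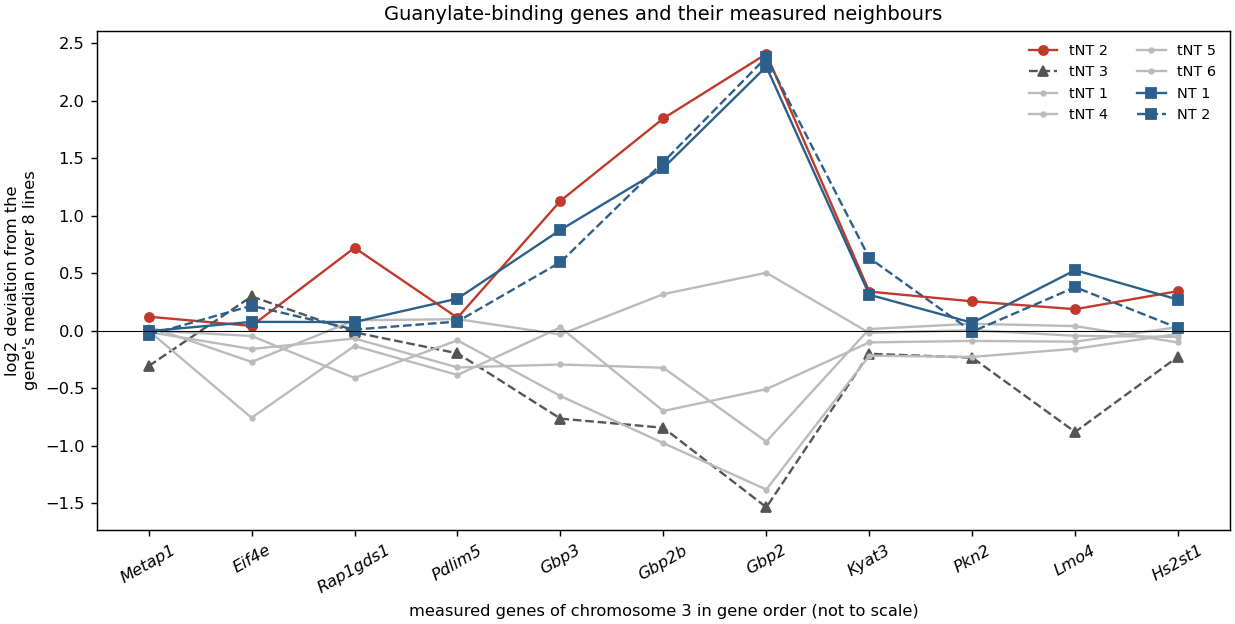
Deviation of each line from the gene's median over the 8 lines (vertical axis, log2) for Gbp3, Gbp2b and Gbp2 and 4 measured genes on either side on chromosome 3, in gene order and not to scale. tNT line 2 (red) and the NT lines (blue) lie above the other tNT lines at the 3 guanylate-binding genes, up to 2.41 above the gene's median at Gbp2, and lie within 0.72 of the median at the 8 neighbours.

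The genes whose pattern over the 8 lines was most like that of Gbp2 were Spink1, a trypsin inhibitor (r = 0.990), Vrtn (r = 0.986), Dnmt3b, a DNA methyltransferase (r = 0.985), Acta2, smooth muscle actin (r = 0.982), Gbp2b (r = 0.981) and Ddx51, an RNA helicase (r = 0.979). Without tNT line 2, over 7 lines, they were Dnmt3b (r = 0.993), Spink1 (r = 0.988), Acta2 (r = 0.988), Fgf5, a growth factor of primed epiblast (r = 0.986), Vrtn (r = 0.983) and Anxa3 (r = 0.983). For Gbp2b they were Lor, a protein of the skin barrier (r = 0.985), Slc7a7, an amino acid transporter (r = 0.981), Gbp2, Wt1, a transcription factor (r = 0.981), Vrtn and Ddx51 (r = 0.976 each), and over the 7 lines Fgf5 (r = 0.995), Wt1 (r = 0.993), Dnmt3b (r = 0.993), Sort1 (r = 0.991), Oas1g (r = 0.984) and Lor (r = 0.983).

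These Pearson correlations are descriptions over 8 or 7 arrays, which fall into high and low lines and share 1 array per line, and carry no p. Among the set itself, Gbp2 correlated at 0.957 with Gbp3, 0.937 with Isg15, 0.795 with Igtp, 0.790 with Irf1 and 0.520 with Bst2. Ranked among all genes tested, these genes were at places 27, 53, 391, 403 and 1510, so many genes outside the set followed Gbp2 more closely. Without tNT line 2 the values were 0.956, 0.937, 0.799, 0.739 and 0.411, at places 51, 104, 584, 837 and 2236. Oas1g, an oligoadenylate synthetase of the antiviral response, differed by -0.66 between tNT and NT lines (adjusted p = 0.0654), and Fgf5 by -2.52 (adjusted p = 0.0176).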

How the data were processed

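The deposited table holds, per the file headers, a bead intensity per probe and line with a detection p-value beside it, and the intensities are linear and not background-subtracted, as the values show. A second deposited table holds the authors' processed values, on a log2 scale as the values show, with 1 distribution for all arrays. The submitters' processing notes list BeadStudio 3.2, RMA and lumi without saying what each did, and how background was treated is not stated there. RNA was copied into biotin-labelled cRNA, per the labels' protocols.

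The neqc function of limma 3.58.1, run in R 4.3.3 with an offset of 16, corrected the intensities for background and normalized quantiles, which sets all arrays to 1 distribution and so removes any difference in total RNA per cell. Genes entered with a probe whose detection p was under 0.01 on 2 or more of the 8 arrays, and the probe of highest mean stood for the gene. Groups were compared with lmFit and eBayes, 2-sided, with Benjamini-Hochberg adjustment over 8816 at a threshold of 0.05, and the 6 tNT lines gave a slope per passage. The deviation of a line from the median of the other 7 has no test. The platform annotation names 1 gene for 23978 of 25697 probes and none for 1719, and 23962 matched the RefSeq table of GRCm38.p6. Python 3.11.15, numpy 2.4.6, pandas 2.3.3 and matplotlib 3.10.9 were used for tables and figures.

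The genes of the set and the lists were chosen with earlier results of these data known. Genes named beyond the set passed the threshold, were among the 3 measured genes per pathway list with the largest deviation of tNT line 2, or were among the 6 most correlated with Gbp2 or Gbp2b. Adar, neighbours on chromosome 3 and cell type markers are named beside them. The number of arrays, 6 against 2, limits the precision, and nothing beyond the line numbers says that lines are separate samples, so a p-value reflects how far these lines scatter, which may be technical. The fits were tested on simulated data. Alternatives changed the normalization, the offset, the filter on detection, the choice of probe, the model of variance and the weight of arrays, or used a block by line number or left out each line in turn. Probe sequences were not used here.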

Additional observations from a re-analysis of the deposited data

Results flagged for a closer look

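Ifngr1, a chain of the interferon gamma receptor, had 1 tNT line far from the others of its group. It was at 5.76, 5.91, 5.05, 5.80, 5.72 and 5.72 in tNT lines 1 to 6 and at 5.75 and 5.28 in NT lines, and was above background on 5 tNT arrays and 1 NT array. Line 3 is the tNT line not above background, so its distance from the others is not exactly measured. The gap between line 3 and the next tNT line was 0.783 of the whole tNT range, above the 0.625 that Dixon's test sets for 6 samples. Among the genes of the set and the genes named from the pathway lists, 30 were examined this way and 1 passed, and chance gives about 1 in 20.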

How the results depend on the processing

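The tNT-minus-NT difference was negative in each of the 7 measured genes under every alternative run. Of the alternatives for these 7 genes, 119 stayed on the same side of the threshold and 12 newly passed it. The 164 genes called between the groups became 1381 with array weights, which gave tNT line 2 a weight of 0.284, and 6 to 582 when 1 line was left out: 6 without NT line 1, 7 without NT line 2 and 582 without tNT line 2. Of the 7 genes, 0 were called in the fit as reported, 1 without background correction (Isg15, adjusted p = 0.0401), 1 with an offset of 50 (Isg15, adjusted p = 0.0444), 5 with array weights and 0 to 5 without a line. The adjusted p ranged over alternatives from 0.00312 to 0.488 for Isg15, from 0.00522 to 0.595 for Gbp2, from 0.00919 to 0.676 for Gbp2b, from 0.0227 to 0.841 for Gbp3 and from 0.00802 to 0.502 for Igtp. Genes at least 2-fold above in tNT line 2, 110 as reported, numbered 25 without background correction, 256 with the authors' processed values, 52 with an offset of 50, 63 when detection was required on all 8 arrays, and 99 to 130 without a line. Of the 7 genes, 4 passed 2-fold as reported and 2 did without background correction, with an offset of 50 and, since Gbp2 and Gbp2b then do not enter, with detection on all arrays. The causes were not tested. For passage, leaving out a line gave slopes of -0.27 to -0.14 for Gbp2, -0.18 to -0.068 for Gbp2b, -0.12 to -0.055 for Gbp3 and -0.10 to -0.025 for Isg15, each smallest without tNT line 2, and moved the slope of Igtp between -0.0367 and 0.0034, of Irf1 between -0.0161 and 0.0014 and of Bst2 between -0.018 and 0.047. Slopes with another sign were 0.0006 for Irf1 without tNT line 1, 0.0014 for Irf1 and 0.0034 for Igtp without line 2, 0.0016 for Igtp without line 3 and -0.018 for Bst2 without line 5, and 0 genes passed in every alternative.

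With the line number as a block, which pairs tNT lines 1 and 2 with the NT lines of the same number, 157 genes were called and 0 of the 7, with differences of -0.88 for Gbp2 and -1.01 for Isg15. Deviations of same-numbered lines from their group means correlated at 0.0411 for number 1 and 0.000173 for number 2. With only 2 NT lines both values rest on the same NT difference, so they cannot decide whether same-numbered lines are related. The planned block by chip was not run because no chip is named in the files. Low signal limits Gbp2 and Gbp2b, which were above background on 4 and 3 of the 6 tNT arrays.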
